A study of Mus musculus with 20 samples.

Results

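The step from actinic keratosis to invasive squamous cell carcinoma was examined in the skin of hairless mice: the 4 cutaneous squamous cell carcinoma (cSCC) samples, labelled cSCC 18 to cSCC 21, were compared with the 8 actinic keratosis (AK) samples, labelled AK 10 to AK 17. Members were taken by their labels alone and make up 12 of the 20 RNA-seq samples of the series. The other 8 samples are normal skin (NS), whose levels are given only as a background. All tissues came from female Hairless SKH-1 mice, 7 months old when supplied, an outbred strain with an intact immune system. Ultraviolet (UV) light from solar simulators was given to 4 mice, and 4 others stayed unirradiated. Each irradiated mouse gave 3 lesions, so the 8 AK and 4 cSCC came from the same 4 animals. The AK were graded as papillomas by pathology. The labels give neither the mouse nor the AK grade of a sample, so samples were not paired and p-values treat them as independent. NS came from both arms, which were not told apart.

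Actinic keratosis is a UV-induced premalignant thickening of the epidermis, in which keratinocytes still mature and cornify. In cSCC, keratinocytes breach the basement membrane. Normal epidermis is renewed from a basal layer whose cells stop dividing, switch keratins, make cornified envelope proteins and barrier lipids, and are shed. Tumors of this kind are known to lose this program to differing degrees and to draw in neutrophils, macrophages and a reactive stroma.

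Each value below is a level in CPM, the read count of a gene scaled to a common library size, with the scaling factors of the trimmed mean of M-values (TMM). Where 4 values are given for a gene, they are the levels in cSCC 18, 19, 20 and 21, in that order. For AK the lowest, median and highest of 8 samples are given. Log2 fold changes are cSCC minus AK, with the standard error (SE) and the Benjamini-Hochberg adjusted p of edgeR's quasi-likelihood test. A differentially expressed gene (DEG) had an adjusted p below 0.05 and a fold change above 1.5 or below 0.67. A gene was called non-overlapping when every cSCC lay above, or below, every AK. A DEG was called held when it stayed a DEG without each of the 4 cSCC in turn.

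The 4 tumors were unequal. Total counts ran from 775750 (cSCC 20) to 7095102 (cSCC 21) in cSCC and from 867219 to 14055206 in AK. In the red blood cell list, the summed level was 927099 CPM in cSCC 18, against 12895 to 71895 CPM in the other cSCC and 10125 to 157601 CPM in AK. TMM scaled its library size by 0.509, which raises the CPM of all genes of cSCC 18. In the lung list, the summed level was 36708 CPM in cSCC 20, against 17.4 to 38.2 CPM in the other cSCC and 78.9 to 145 CPM in AK. In the heart muscle list, the sum was 78084 CPM in cSCC 21, against 131 to 246 CPM in the other cSCC and 27.9 to 164 CPM in AK. Surfactant protein C (Sftpc), made by alveolar cells, was at 6.95, 3.52, 22389 and 3.8 CPM. Cardiac actin (Actc1) was at 10.4, 12.3, 48.9 and 15454 CPM. All 11 tested heart genes were DEGs, and 1 was a DEG without cSCC 21. The skin identity of the tumors was also uneven: the 14 keratinocyte markers summed to 33471, 26563, 9858 and 9146 CPM, against 20451 to 35385 CPM in AK, so that cSCC 20 and cSCC 21 lay below every AK. In whole tissue, fewer cells of a type and less RNA per cell cannot be told apart.

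**Figure D1:**
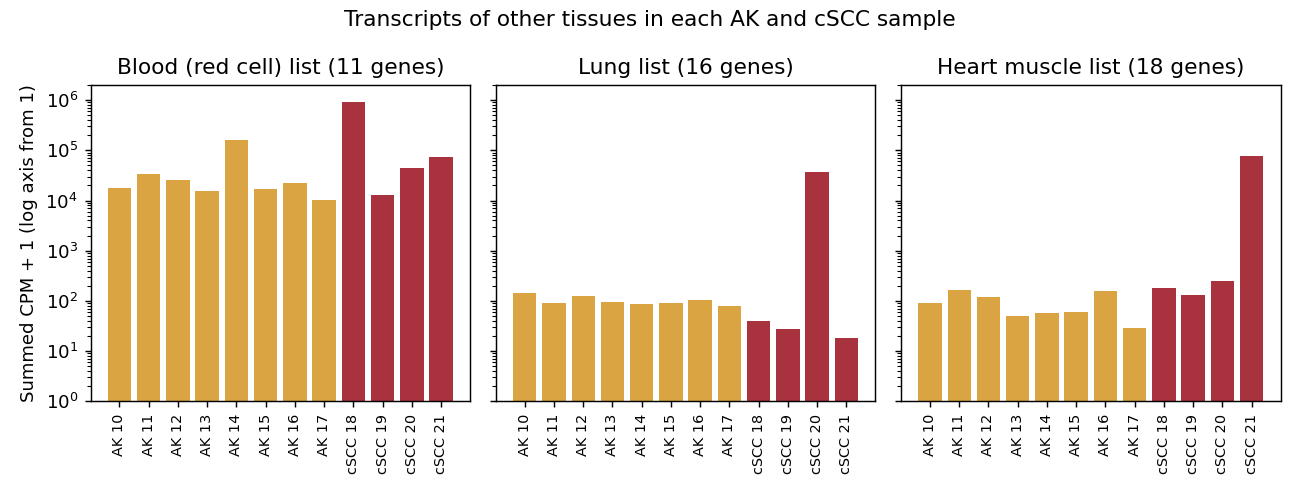
Summed CPM (log axis) of the red blood cell, lung and heart muscle lists in each AK (yellow) and cSCC (red) sample. cSCC 18 reaches 927099 CPM in the blood list, cSCC 20 36708 CPM in the lung list and cSCC 21 78084 CPM in the heart list.

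A total of 12032 of 22090 genes were tested. Of these, 2935 (24.4%) were DEGs, among which 1931 (16.05%) were higher in cSCC and 1004 (8.34%) lower in cSCC. The gains rested more on cSCC 21 than the losses did. Of the 1931 higher DEGs, 1229 (63.6%) were highest in cSCC 21, and 743 (38.5%) stayed DEGs without it. Of the 1004 lower DEGs, 766 (76.3%) stayed DEGs without cSCC 21. The same order held for cSCC 18, without which 90.5% of the higher and 96.7% of the lower DEGs stayed. It did not hold for cSCC 19 and cSCC 20: without cSCC 19, 80.7% and 76.3% stayed, and without cSCC 20, 87.3% and 79.6%. Non-overlapping DEGs numbered 384 higher (3.19% of genes tested) and 716 lower (5.95%). Held DEGs numbered 515 higher (4.28%) and 637 lower (5.29%). DEGs that were both numbered 280 higher (2.33%) and 561 lower (4.66%), and of these 280, 139 were highest in cSCC 21, 92 in cSCC 19, 36 in cSCC 20 and 13 in cSCC 18. The split depended on scaling. Higher genes were 65.8% of DEGs with TMM and 43.0% with no scaling beyond library size (1021 higher and 1356 lower), and the median log2 fold change of all genes tested was 0.17 and -0.09, respectively. Without cSCC 21, the DEGs numbered 837 higher and 950 lower.

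Higher and lower genes also differed in base composition. The median GC content of the longest transcript was 53.1% for higher DEGs, 45.4% for lower DEGs and 49.0% for all genes tested, with median lengths of 2676, 4313 and 3341 bases. The count-weighted GC content of the libraries was 48.0% to 49.8% in cSCC and 46.6% to 47.7% in AK, without overlap. With a correction for GC content, 251 of the 280 higher and 452 of the 561 lower non-overlapping, held genes were still called. Of all DEGs, 1221 of 1931 higher (63.2%) and 674 of 1004 lower (67.1%) were still called.

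Late genes of terminal differentiation were lower in the 4 tumors. Of 31 tested genes of the cornified layer, 0 were higher and 21 lower, 14 of them non-overlapping, with a median log2 fold change of -2.14 against 0.17 for all genes. Without cSCC 21, 19 were lower, and without cSCC 20 and cSCC 21, 11 were lower. Loricrin (Lor), the main protein of the cornified envelope, was at 18.8, 1.32, 7.96 and 1.98 CPM in cSCC, 49.1 to 386 CPM (median 155) in AK and a median of 576 CPM in NS (log2 fold change -4.65, SE 0.74, adjusted p = 0.00219). Filaggrin-2 (Flg2), a filament-aggregating protein of the granular layer, was at 17.4, 1.76, 11.4 and 0 CPM in cSCC and 152 to 519 CPM (median 223) in AK (log2 fold change -5.25, SE 0.90, adjusted p = 0.00255). Hornerin (Hrnr), a relative of filaggrin, was at 178, 10.5, 52.3 and 1.65 CPM in cSCC and 924 to 4187 CPM (median 1540) in AK (log2 fold change -4.92, SE 1.01, adjusted p = 0.00498). No tumor reached the lowest AK in these 3 genes, and cSCC 18 kept the highest level of the 4. Lce1m, a late cornified envelope gene of a family with close copies, was at 6.95, 0, 4.55 and 0.331 CPM in cSCC and 28.8 to 285 CPM (median 88.8) in AK (log2 fold change -5.38, SE 0.95, adjusted p = 0.00277). The step was less clean for the earlier suprabasal keratin 10 (Krt10), at 321, 9.23, 44.4 and 11.6 CPM in cSCC and 231 to 1907 CPM (median 705) in AK. There cSCC 18 lay within the AK range, and the DEG call (log2 fold change -3.12, SE 0.90, adjusted p = 0.0226) was lost without cSCC 20 (adjusted p = 0.0541). Basal keratin 14 (Krt14) did not pass the test, at 14100, 13516, 4115 and 2917 CPM in cSCC and 7045 to 11217 CPM (median 9165) in AK. The 4 tumors held 27966, 3950, 5790 and 2790 CPM over the differentiation list, against 27095 to 71858 CPM in AK. In cSCC 19, whose keratinocyte marker sum lay within the AK range, the differentiation sum was thus below every AK.

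The promoters of these genes are shown because their genes lie in 1 cluster on chromosome 3, the epidermal differentiation complex, and were lower together. The 120 bases before each start site are from RefSeq (GRCm38.p6), 5′ to 3′ on the gene's strand. Capitals mark a loose form of the AP-1 motif, TGANTCA, whose pattern is the same on both strands. N is any base, where the usual form has C or G. Of the stretches marked below, only that of Lor (TGAGTCA) has the usual form, while Flg and Flg2 have TGAATCA. Filaggrin (Flg), which was chosen after its values were seen, is at chr3:93273426-93273545, plus strand.
Flg: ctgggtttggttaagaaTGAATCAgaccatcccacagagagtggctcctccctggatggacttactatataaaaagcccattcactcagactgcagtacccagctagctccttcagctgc
Flg2 is at chr3:93197153-93197272, plus strand.
Flg2: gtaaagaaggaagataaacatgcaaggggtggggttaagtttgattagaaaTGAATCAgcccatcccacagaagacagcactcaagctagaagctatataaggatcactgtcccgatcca
Lor is at chr3:92083143-92083262, minus strand.
Lor: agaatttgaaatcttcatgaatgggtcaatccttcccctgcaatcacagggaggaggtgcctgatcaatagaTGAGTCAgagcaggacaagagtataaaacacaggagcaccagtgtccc
The motif starts 103, 69 and 48 bases before the start of Flg, Flg2 and Lor, and its letters are not in that window of Hrnr. It occurs in 3.40% of all 27025 promoters of the table and in 2.51% of the 9068 that matched a gene tested. Flg itself was at 460, 40, 137 and 7.28 CPM in cSCC and 1168 to 5398 CPM (median 2767) in AK (log2 fold change -4.19, SE 0.89, adjusted p = 0.00583), again without overlap.

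Of 20 tested enzymes and transporters of the epidermal lipid barrier, 0 were higher and 11 lower, 9 of them non-overlapping (median log2 fold change -1.74). Without cSCC 20 and cSCC 21, 6 were lower. Abca12, the transporter that loads lipids into lamellar granules, was at 122, 19.8, 29.6 and 24.8 CPM in cSCC and 283 to 596 CPM (median 399) in AK (log2 fold change -2.99, SE 0.48, adjusted p = 0.0022). All 4 tumors lay under the lowest AK, and NS (median 370 CPM) was near AK. The fatty acid elongase Elovl7 was at 287, 36.5, 46.6 and 21 CPM in cSCC and 411 to 829 CPM (median 577) in AK (log2 fold change -2.57, SE 0.60, adjusted p = 0.00863). Far2, a fatty acyl reductase of wax ester synthesis, and Elovl3, an elongase of very long chains, are also sebaceous gland genes. Far2 was at 3.47, 3.08, 4.55 and 1.65 CPM in cSCC and 31.6 to 115 CPM (median 78.1) in AK (log2 fold change -4.61, SE 0.43, adjusted p = 0.000324). Elovl3 was at 4.86, 1.76, 9.1 and 0 CPM in cSCC and 44.3 to 116 CPM (median 73.6) in AK (log2 fold change -4.59, SE 0.76, adjusted p = 0.00242). Of the 12 sebaceous markers tested, 5 were lower and 0 higher. The wax synthase Awat1 was at 12.5, 1.76, 0 and 0 CPM in cSCC and 25.2 to 101 CPM (median 45) in AK (log2 fold change -3.86, SE 0.90, adjusted p = 0.0087). The keratin Krt79 was at 74.3, 5.27, 75.1 and 1.82 CPM in cSCC and 243 to 770 CPM (median 438) in AK (log2 fold change -3.42, SE 0.81, adjusted p = 0.00935). The sebaceous list summed to 313, 473, 1716 and 186 CPM in cSCC, against 1038 to 2132 CPM in AK, so that only cSCC 20 lay within the AK range. The part of these glands in the lipid barrier result was not tested.

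Junction genes gave a partial loss. Of 21 tested, 7 were lower, 4 of them non-overlapping, and 1 was higher (median log2 fold change -0.58). Claudin-1 (Cldn1), a tight junction protein of the epidermal barrier, was at 83.4, 13.2, 55.8 and 12.4 CPM in cSCC and 278 to 492 CPM (median 345) in AK (log2 fold change -3.08, SE 0.49, adjusted p = 0.00219). It was the lower junction gene with the largest change, and no tumor reached the AK range. Desmocollin-3 (Dsc3), a desmosomal cadherin of the lower epidermis, was at 437, 267, 158 and 49.1 CPM in cSCC and 665 to 1041 CPM (median 857) in AK (log2 fold change -1.84, SE 0.43, adjusted p = 0.0089). Plakophilin-1 (Pkp1) and desmoplakin (Dsp), which anchor desmosomes to keratins, were also non-overlapping, with log2 fold changes of -1.14 and -0.96. Their calls were lost without cSCC 20, with an adjusted p of 0.0654 and 0.078, and that of Dsp also without cSCC 19 (0.0669). E-cadherin (Cdh1), of adherens junctions, was at 136, 90.1, 80.8 and 34.7 CPM in cSCC and 179 to 318 CPM (median 246) in AK (log2 fold change -1.43, SE 0.29, adjusted p = 0.00498). Plakophilin-2 (Pkp2), which heart muscle also uses, was at 2.08, 6.15, 3.41 and 109 CPM. It was the 1 higher gene, and its call was lost without cSCC 21 (adjusted p = 0.523).

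**Figure D2:**
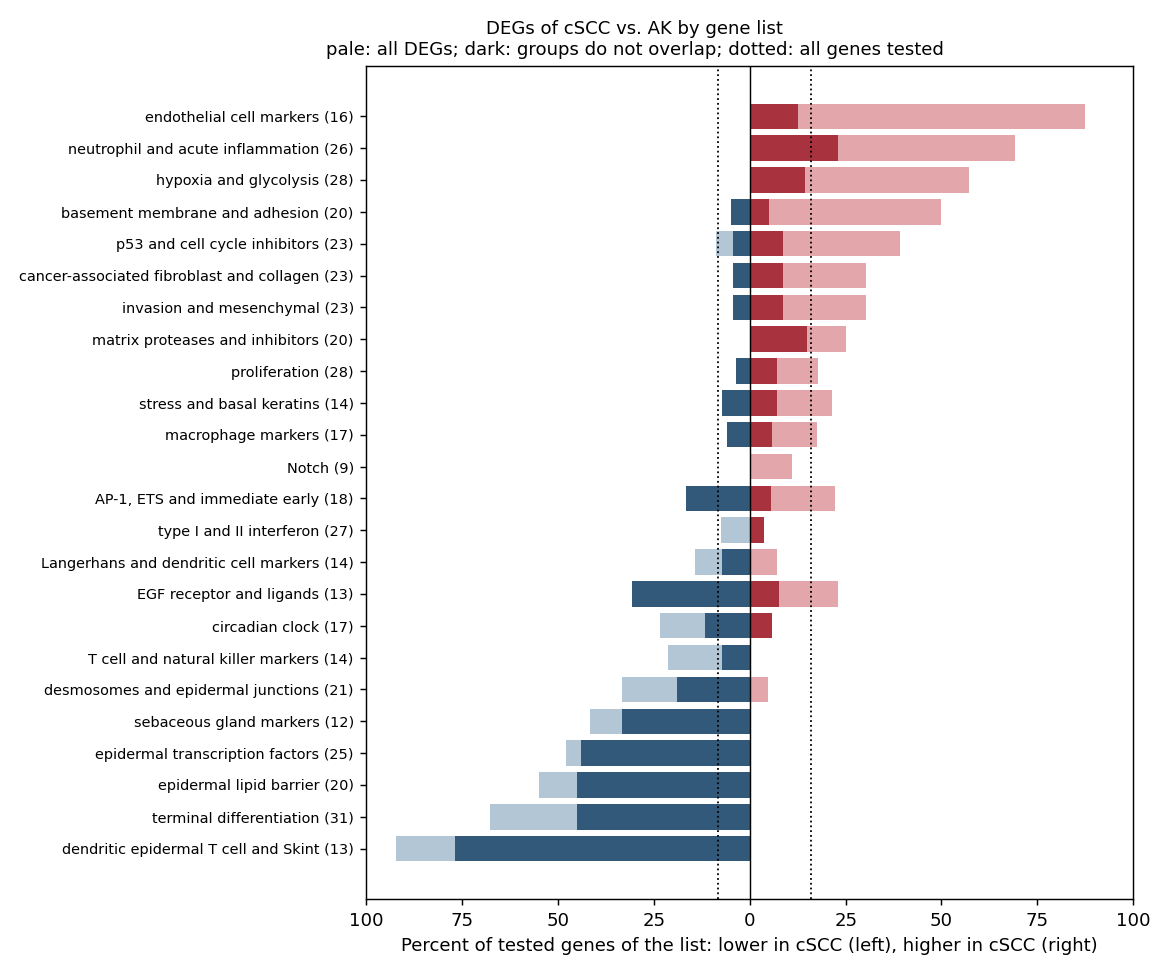
Percent of the tested genes of each list (number in parentheses) that were DEGs lower (left, blue) or higher (right, red) in cSCC than in AK, with non-overlapping DEGs in dark shades. Dotted lines give the shares over all genes tested, 8.34% lower and 16.05% higher, and the differentiation, lipid barrier, transcription factor and Skint lists have DEGs only on the left.

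The count of each list is to be read against the shares over all genes tested, 16.05% higher and 8.34% lower. Counts of 0 in a direction are those of edgeR's test. At an unadjusted p below 0.05 the 0 counts of the lists described here were again 0, except for 1 higher gene among the transcription factors. DESeq2 gave 0 for each of them, and limma voom gave 0 except for 1 lower gene of hypoxia and glycolysis.

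Of 25 tested transcription factors of the epidermis, 12 were lower, 11 of them non-overlapping and 11 held, and 0 were higher (median log2 fold change -1.32). Without cSCC 21 the number lower was again 12, and without cSCC 20 and cSCC 21 it was 8. Rora, a nuclear receptor that acts in keratinocyte maturation and in the circadian clock, was at 93.8, 26.4, 122 and 44.8 CPM in cSCC, 336 to 670 CPM (median 490) in AK and a median of 491 CPM in NS (log2 fold change -2.68, SE 0.40, adjusted p = 0.00194). The 4 tumors thus lay below AK and NS, whose medians differed little. Grhl1, a grainyhead factor that controls desmosomal cadherins, was at 65.3, 20.7, 34.1 and 23.3 CPM in cSCC and 128 to 260 CPM (median 187) in AK (log2 fold change -2.28, SE 0.32, adjusted p = 0.00162). Bcl11b, needed for barrier formation, was at 47.9, 34.3, 17.1 and 4.47 CPM in cSCC and 95.9 to 160 CPM (median 136) in AK (log2 fold change -2.34, SE 0.45, adjusted p = 0.00361). Pou2f3, a POU factor of the suprabasal layers, was at 10.4, 2.64, 5.69 and 0 CPM in cSCC and 11.4 to 52.8 CPM (median 34.1) in AK (log2 fold change -2.92, SE 0.76, adjusted p = 0.0144). All 4 of these were non-overlapping and held. Trp63, the master factor of stratified epithelium, did not pass the test, at 518, 337, 175 and 48 CPM in cSCC and 449 to 827 CPM (median 542) in AK.

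The list with the largest share of lower genes was that of the Skint family, which also holds Itgae and Cd207 of epidermal immune cells. Skint genes encode butyrophilin-like membrane proteins of keratinocytes, and Skint1 is known for selecting the dendritic epidermal T cells that patrol mouse skin. Of 13 tested genes of the list, 12 were lower and 0 higher, 10 of them non-overlapping (median log2 fold change -4.21). Skint5 (chr4:113477891-113999503), Skint7 (chr4:111972923-111988223) and Skint8 (chr4:111919392-111950358) had 0 counts in every cSCC. Skint5 was at 0.701 to 45.8 CPM (median 4.49) in AK and 12.5 to 177 CPM (median 63.1) in NS, Skint7 at 0.603 to 9.36 CPM (median 4.79) in AK and Skint8 at 1.2 to 7.57 CPM (median 4.7) in AK. Against the limit that 3 counts over the 4 cSCC libraries together allow (0.282 CPM), pooled cSCC was at least 67.3-fold, 19.8-fold and 19.4-fold lower than pooled AK. These bounds rest on the deepest libraries. Without cSCC 21, the limit is 0.653 CPM and the bounds are 29.1-fold, 8.56-fold and 8.36-fold, and without AK 10, the AK with the most Skint5, they are 17.1-fold, 12.8-fold and 15.7-fold. Skint2 was at 1.39, 0, 0 and 0 CPM in cSCC and 8.83 to 22.9 CPM (median 12.8) in AK (log2 fold change -5.74, SE 0.88, adjusted p = 0.00202). Reads of close Skint copies may be split between them, so single members are uncertain. In the list of T and natural killer cells, 3 of 14 tested genes were lower, against 8.34% of all genes tested. Nkg7, a granule protein of cytotoxic lymphocytes, was at 16, 5.71, 9.1 and 1.32 CPM in cSCC and 22.8 to 135 CPM (median 49.3) in AK (log2 fold change -2.86, SE 0.59, adjusted p = 0.00533). Cd3g, a subunit of the T cell receptor complex, was at 5.56, 2.2, 15.9 and 1.16 CPM in cSCC and 13.8 to 83.9 CPM (median 42.5) in AK (log2 fold change -2.93, SE 0.67, adjusted p = 0.00824), and cSCC 20 lay within the AK range. Cd207 (langerin), carried by Langerhans cells, was at 9.03, 2.64, 0 and 0 CPM in cSCC and 6.59 to 139 CPM (median 46.9) in AK (log2 fold change -4.21, SE 0.98, adjusted p = 0.00878), and cSCC 18 lay within the AK range. With limma voom, the calls of Nkg7, Cd3g and Cd207 were lost (adjusted p = 0.0823, 0.0986 and 0.148). Of 14 tested markers of Langerhans and dendritic cells, 2 were lower and 1 higher, against 8.34% and 16.05% of all genes tested. Ccl22, a chemokine of mature dendritic cells, was at 2.78, 0.879, 0 and 0.331 CPM in cSCC and 3.6 to 17.7 CPM (median 8.72) in AK (log2 fold change -3.20, SE 0.73, adjusted p = 0.00796). Cd74, the chaperone of class II antigen presentation, was at 66.7, 528, 405 and 346 CPM in cSCC and 39.1 to 160 CPM (median 124) in AK (log2 fold change 1.81, SE 0.44, adjusted p = 0.0106), and cSCC 18 lay within the AK range.

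**Figure D3:**
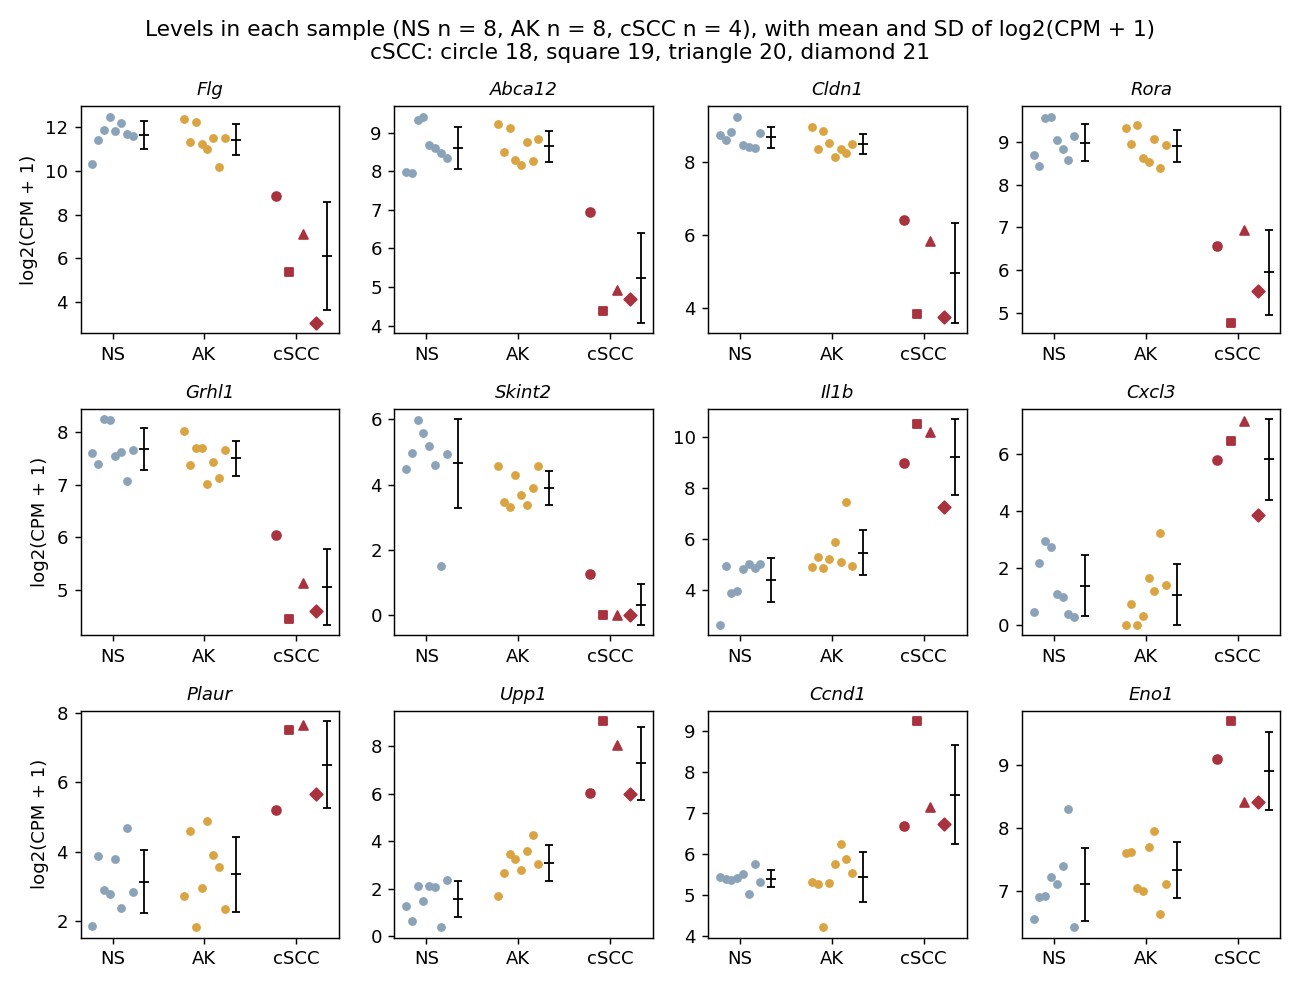
Levels as log2(CPM + 1) in each NS, AK and cSCC sample of 12 genes, with the mean and SD beside the points. In Cldn1, Rora and Grhl1 the 4 tumors lie below all AK and NS, and in Upp1, Plaur and Ccnd1 they lie above all AK.

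Of 26 tested genes of neutrophils and acute inflammation, 18 were higher and 0 lower, 6 of them non-overlapping and 11 held (median log2 fold change 2.20). The count was 19 without cSCC 21, 17 without cSCC 18 and 17 without cSCC 20 and cSCC 21. Cxcl3, a chemokine that draws neutrophils through Cxcr2, was at 54.2, 88.3, 143 and 13.6 CPM in cSCC, 0 to 8.39 CPM (median 0.964) in AK and a median of 1.04 CPM in NS (log2 fold change 5.69, SE 0.89, adjusted p = 0.00219). Trem1, an activating receptor of neutrophils and monocytes, was at 41.7, 102, 117 and 26.6 CPM in cSCC and 0 to 18 CPM (median 2.06) in AK (log2 fold change 4.25, SE 0.90, adjusted p = 0.00559). Csf3r, the receptor of granulocyte colony-stimulating factor, was at 17.4, 26.8, 10.2 and 31.8 CPM in cSCC and 0 to 3.62 CPM (median 1.51) in AK (log2 fold change 3.78, SE 0.61, adjusted p = 0.00234). These 3 genes were higher in every tumor than in every AK. Hdc, the histamine-forming enzyme of myeloid and mast cells, was at 38.2, 122, 67.1 and 58.2 CPM in cSCC and 1.12 to 21 CPM (median 7.69) in AK (log2 fold change 3.32, SE 0.55, adjusted p = 0.00242). It was the 1 DEG among 10 mast cell markers. Without cSCC 21, 4 of the 10 were higher, and without cSCC 20 and cSCC 21, 3 were. S100a9, a calcium-binding alarmin of neutrophils and stressed keratinocytes, was at 8418, 1884, 2169 and 1021 CPM in cSCC and 308 to 1415 CPM (median 759) in AK (log2 fold change 2.25, SE 0.49, adjusted p = 0.00622). It was highest in cSCC 18, the sample with the most haemoglobin transcripts, and cSCC 21 lay within the AK range. NS reached 2662 CPM of it, above cSCC 19, 20 and 21. The part of blood in these results was not tested.

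Cxcl3 and its neighbours Cxcl1 and Cxcl2 form a cluster on chromosome 5, and their promoters are shown because all 3 genes were higher. Cxcl1 and Cxcl2 were chosen after their values were seen. The 120 bases before each start are from RefSeq (GRCm38.p6), with the NF-kB motif in capitals, which was searched on both strands as GGG, any 2 bases and TTTCC. Cxcl1 is at chr5:90891125-90891244, plus strand.
Cxcl1: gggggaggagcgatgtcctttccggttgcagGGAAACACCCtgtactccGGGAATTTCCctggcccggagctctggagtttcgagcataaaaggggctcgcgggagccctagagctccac
Cxcl2 is at chr5:90903779-90903898, plus strand.
Cxcl2: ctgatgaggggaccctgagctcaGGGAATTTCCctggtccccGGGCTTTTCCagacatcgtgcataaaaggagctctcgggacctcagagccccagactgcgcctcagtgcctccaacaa
Cxcl3 is at chr5:90785981-90786100, plus strand.
Cxcl3: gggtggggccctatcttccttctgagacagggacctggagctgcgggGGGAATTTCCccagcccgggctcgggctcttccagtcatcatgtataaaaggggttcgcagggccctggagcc
Matches begin 89 and 71 bases before the start of Cxcl1, 97 and 78 bases before that of Cxcl2 and 73 bases before that of Cxcl3. A match occurs in 0.733% of all promoters of the table and in 0.761% of those of genes tested. Cxcl1 was at 15.3, 578, 100 and 10.3 CPM in cSCC and 0 to 18.7 CPM (median 4.5) in AK (log2 fold change 4.94, SE 0.90, adjusted p = 0.00308). Cxcl2 was at 135, 135, 154 and 53.6 CPM in cSCC and 0 to 61.1 CPM (median 6.05) in AK (log2 fold change 3.43, SE 0.84, adjusted p = 0.0112). In both, at least 1 tumor lay under the highest AK. The cytokine Il1b, also chosen after its values were seen, was at 494, 1453, 1154 and 149 CPM in cSCC and 27.7 to 174 CPM (median 34.2) in AK (log2 fold change 4.03, SE 0.59, adjusted p = 0.00187), and cSCC 21 lay under the highest AK.

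Of 17 macrophage markers tested, 3 were higher and 1 lower (median log2 fold change 0.10), near the 16.05% higher and 8.34% lower of all genes tested. C1qa, a complement subunit made by tissue macrophages, was at 41, 193, 118 and 68.1 CPM in cSCC and 4.79 to 27.7 CPM (median 17.1) in AK (log2 fold change 2.77, SE 0.47, adjusted p = 0.00248). NS reached 93 CPM of it, above cSCC 18 and cSCC 21. Arg1, an arginine-degrading enzyme of alternatively activated macrophages, was at 448, 325, 594 and 57.7 CPM in cSCC and 44.2 to 125 CPM (median 68) in AK (log2 fold change 2.35, SE 0.44, adjusted p = 0.00329). Interferon genes gave 1 higher and 2 lower of 27 (median -0.45). Oas3, an antiviral sensor, was at 25.7, 10.1, 6.83 and 2.81 CPM in cSCC and 17.4 to 82.5 CPM (median 57.3) in AK (log2 fold change -2.22, SE 0.53, adjusted p = 0.0101). There cSCC 18 lay within the AK range, and limma voom ended the call (adjusted p = 0.0992). NS was at 0 to 34.3 CPM (median 8.53) of Oas3, a range that held all 4 tumors. The 1 higher gene, Irf7, was at 13.9, 14.1, 12.5 and 25.1 CPM in cSCC and 3.6 to 11 CPM in AK. Its call (log2 fold change 1.45, SE 0.39, adjusted p = 0.0162) was lost without cSCC 21 (adjusted p = 0.115).

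Hypoxia and glycolysis genes rose in part. Of 28 tested, 16 were higher and 0 lower, 4 of them non-overlapping and 11 held (median log2 fold change 1.22). The count was again 16 without cSCC 21 and 16 without cSCC 20 and cSCC 21, and it was 10 with no scaling beyond library size. Enolase (Eno1), of glycolysis, was at 545, 825, 338 and 339 CPM in cSCC and 98.9 to 246 CPM (median 166) in AK (log2 fold change 1.72, SE 0.29, adjusted p = 0.00248). Slc16a3, a lactate exporter, was at 27.8, 50.5, 22.8 and 51.8 CPM in cSCC and 2.52 to 16.2 CPM (median 6.45) in AK (log2 fold change 2.39, SE 0.41, adjusted p = 0.00248). Plod2, a collagen-modifying hydroxylase, was at 23.6, 10.1, 18.2 and 19.8 CPM in cSCC and 0 to 8.67 CPM (median 5.48) in AK (log2 fold change 1.82, SE 0.48, adjusted p = 0.016). All 4 tumors lay above every AK in these 3 genes. Aldolase A (Aldoa), which muscle also makes in bulk, was at 1376, 2380, 1116 and 7127 CPM in cSCC and 447 to 1020 CPM (median 652) in AK (log2 fold change 2.30, SE 0.45, adjusted p = 0.00414). Its level was highest in cSCC 21, the sample with heart transcripts, whose part in it was not tested, and the 3 other tumors lay above every AK too. NS reached 1185 CPM of Aldoa, above cSCC 20.

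Of 20 tested matrix proteases and inhibitors, 5 were higher and 0 lower, 3 of them non-overlapping (median log2 fold change 1.45). Over all genes tested, 16.05% were higher, 8.34% lower and 3.19% higher without overlap. Without cSCC 21, 7 of the list were higher, and without cSCC 20 and cSCC 21, 7 were. The 3 non-overlapping genes, Plaur, Plat and Serpine2, belong to the plasminogen system. Plaur, the urokinase receptor that focuses plasmin at the cell surface, was at 36.1, 182, 201 and 49.3 CPM in cSCC and 2.52 to 28.3 CPM (median 8.78) in AK (log2 fold change 3.37, SE 0.58, adjusted p = 0.00253). The plasminogen activator Plat was at 32.6, 153, 31.9 and 70.3 CPM in cSCC and 12.6 to 31.8 CPM (median 16.2) in AK (log2 fold change 2.14, SE 0.39, adjusted p = 0.00308). Its inhibitor Serpine2 was at 73.6, 123, 149 and 75.1 CPM in cSCC and 6.51 to 70.1 CPM (median 23.3) in AK (log2 fold change 2.07, SE 0.51, adjusted p = 0.011). Activator, receptor and inhibitor were thus each higher in every tumor than in every AK, but for 2 of them by a thin margin. Plat in cSCC 20 (31.9 against 31.8 CPM) and Serpine2 in cSCC 18 (73.6 against 70.1 CPM) lay only just above the highest AK. Without cSCC 20 and cSCC 21, the call of Serpine2 was lost in edgeR's test (adjusted p = 0.0504). Timp1, an inhibitor of matrix metalloproteinases, was at 24.3, 97.5, 238 and 15.9 CPM in cSCC and 5.46 to 33.6 CPM (median 17.5) in AK (log2 fold change 2.47, SE 0.58, adjusted p = 0.00878), a call lost without cSCC 20 (adjusted p = 0.0566). The collagenase Mmp13 did not pass the test, at 926, 1163, 489 and 112 CPM in cSCC and 11.5 to 506 CPM (median 146) in AK (adjusted p = 0.0566).

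Among invasion and mesenchymal genes, 7 of 23 were higher and 1 lower (median log2 fold change 0.82). The chromatin protein Hmga2, absent from most adult tissue, was at 3.47, 122, 27.3 and 3.31 CPM in cSCC and 0 to 3 CPM (median 0.613) in AK (log2 fold change 5.43, SE 0.87, adjusted p = 0.0022). Its level was much higher in cSCC 19 and cSCC 20 than in the other tumors, which lay just above the highest AK. Follistatin (Fst), an activin antagonist, was at 44.5, 268, 58 and 46.3 CPM in cSCC and 7.93 to 28.2 CPM (median 19.1) in AK (log2 fold change 2.57, SE 0.46, adjusted p = 0.00288). The activin subunit Inhba was at 29.2, 70.7, 28.4 and 10.3 CPM in cSCC and 0 to 25.2 CPM (median 3.85) in AK (log2 fold change 2.50, SE 0.83, adjusted p = 0.0393), a call lost without cSCC 19 or cSCC 20 (adjusted p = 0.156 and 0.0521). The matricellular protein Cyr61 was at 28.5, 175, 41 and 189 CPM in cSCC and 2.52 to 53.4 CPM (median 16.9) in AK (log2 fold change 2.54, SE 0.61, adjusted p = 0.0101). The 1 lower gene was Cdh1, described with the junctions. In the basement membrane list, 10 of 20 were higher and 1 lower (median log2 fold change 1.26), but 1 of the 10 was held. Without cSCC 21, 5 were higher, and with the correction for GC content, 5 were. Itga3, an integrin that binds laminin-332, was at 20.8, 127, 20.5 and 22.2 CPM in cSCC and 4.57 to 17.9 CPM (median 8.76) in AK (log2 fold change 2.36, SE 0.53, adjusted p = 0.00737), a call lost without cSCC 19 (adjusted p = 0.0712). Its ligand chain Lamb3 was at 82.7, 594, 67.1 and 60 CPM in cSCC and 17.7 to 90.5 CPM (median 38.3) in AK (log2 fold change 2.15, SE 0.57, adjusted p = 0.0156), and cSCC 19 alone stood far above AK (adjusted p = 0.287 without it). The collagen Col4a2 and perlecan (Hspg2), of vessel and muscle basement membranes as well, were highest in cSCC 21, at 111 and 81 CPM, and lost their calls without it (adjusted p = 0.171 and 0.314). Dystonin (Dst), of hemidesmosomes, was lower, at 113, 87.4, 41 and 60.9 CPM in cSCC and 123 to 182 CPM (median 156) in AK (log2 fold change -0.93, SE 0.24, adjusted p = 0.0148).

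The stroma list was mixed. Of 23 fibroblast and collagen genes, 7 were higher and 1 lower (median log2 fold change 0.48). Sparc, a collagen-binding matricellular protein, was at 574, 1796, 1981 and 549 CPM in cSCC and 144 to 433 CPM (median 302) in AK (log2 fold change 2.15, SE 0.39, adjusted p = 0.00299). Smooth muscle actin (Acta2), of myofibroblasts and vessels, was at 108, 125, 78.5 and 138 CPM in cSCC and 6.31 to 45.2 CPM (median 32.7) in AK (log2 fold change 2.01, SE 0.36, adjusted p = 0.00288). Both were non-overlapping and held. NS reached 689 CPM of Sparc, above cSCC 18 and cSCC 21, and 96.8 CPM of Acta2, above cSCC 20. Periostin (Postn) went the other way, at 592, 623, 539 and 124 CPM in cSCC and 832 to 2077 CPM (median 941) in AK (log2 fold change -1.19, SE 0.41, adjusted p = 0.0477). Its call was lost without cSCC 19, 20 or 21, without any single AK, with limma voom (adjusted p = 0.0992) and with the correction for GC content. NS was at 305 to 1309 CPM of Postn, a range that held cSCC 18, 19 and 20. Of 16 endothelial markers, 14 were higher, 2 of them non-overlapping and 4 held (median log2 fold change 2.73). The number fell to 5 without cSCC 21 and to 2 without cSCC 20 and cSCC 21. Endoglin (Eng) was at 4.86, 25, 10.2 and 140 CPM in cSCC and 1.42 to 3.51 CPM (median 2.45) in AK (log2 fold change 4.41, SE 0.67, adjusted p = 0.00202). Egfl7, a secreted endothelial protein, was at 11.8, 22.8, 13.7 and 114 CPM in cSCC and 0 to 7.84 CPM (median 4.47) in AK (log2 fold change 3.38, SE 0.60, adjusted p = 0.00278). Both were higher in every tumor than in every AK and were highest in cSCC 21. NS reached 8.4 CPM of Eng, above cSCC 18, and 13.9 CPM of Egfl7, above cSCC 18 and cSCC 20. The endothelial list summed to 172, 243, 398 and 1197 CPM in cSCC and to 57 to 139 CPM in AK. The part of the lung and heart transcripts of cSCC 20 and cSCC 21 in it was not tested.

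The epidermal growth factor (EGF) receptor list holds the receptor family, its ligands and feedback genes such as Dusp6. Of its 13 tested genes, 3 ligands were higher and 4 genes, 3 receptors and 1 ligand, were lower. The receptor Egfr was at 65.3, 47.5, 35.3 and 14.1 CPM in cSCC and 66.3 to 109 CPM (median 86.4) in AK (log2 fold change -1.02, SE 0.31, adjusted p = 0.0296), a call lost without cSCC 20 (adjusted p = 0.06) and with the correction for GC content. Erbb3, the kinase-poor partner receptor, was at 40.3, 18, 18.2 and 11.9 CPM in cSCC and 54.2 to 120 CPM (median 78.8) in AK (log2 fold change -1.79, SE 0.32, adjusted p = 0.00282). Erbb2 was at 12.5, 13.2, 2.28 and 9.76 CPM in cSCC and 13.9 to 34.3 CPM (median 27.6) in AK (log2 fold change -1.34, SE 0.38, adjusted p = 0.0209). The 3 receptors were lower in every tumor than in every AK, but Egfr and Erbb2 by a thin margin. Egfr in cSCC 18 (65.3 against 66.3 CPM) and Erbb2 in cSCC 19 (13.2 against 13.9 CPM) lay only just below the lowest AK. For Erbb2 that lowest AK was AK 12, the AK with the fewest counts. With limma voom, the calls of Egfr and Erbb2 were lost (adjusted p = 0.0817 and 0.1). Neuregulin (Nrg1), the ligand of Erbb3, was at 17.4, 61.5, 13.7 and 9.43 CPM in cSCC and 0 to 8.47 CPM (median 1.29) in AK (log2 fold change 3.32, SE 0.80, adjusted p = 0.0102). Amphiregulin (Areg), a ligand of Egfr, was at 18.8, 154, 34.1 and 5.46 CPM in cSCC and 5.85 to 20.3 CPM (median 14) in AK (log2 fold change 2.15, SE 0.60, adjusted p = 0.0189). Hbegf, another, was at 236, 635, 138 and 96.8 CPM in cSCC and 63.1 to 196 CPM (median 99.1) in AK (log2 fold change 1.39, SE 0.44, adjusted p = 0.0316). These 3 were each highest in cSCC 19, and without it their adjusted p was 0.0592, 0.381 and 0.286. Betacellulin (Btc), a ligand of the hair follicle and upper epidermis, was at 4.17, 2.64, 3.41 and 6.28 CPM in cSCC and 11.5 to 52.7 CPM (median 22.7) in AK (log2 fold change -2.39, SE 0.47, adjusted p = 0.00398).

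Of 18 AP-1, ETS and immediate early genes, 4 were higher and 3 lower, against 16.05% and 8.34% of all genes tested. Junb, an AP-1 subunit that restrains growth in skin, was at 50, 62.8, 81.9 and 126 CPM in cSCC and 16.2 to 35.5 CPM (median 29.6) in AK (log2 fold change 1.64, SE 0.28, adjusted p = 0.00248), higher in every tumor than in every AK. NS reached 53.5 CPM of Junb, above cSCC 18. Fosl1, a subunit linked to invasion, was at 1.39, 44.8, 14.8 and 15.2 CPM in cSCC and 0 to 4.31 CPM (median 0.417) in AK (log2 fold change 3.58, SE 0.93, adjusted p = 0.0146), with cSCC 18 within the AK range and the call lost without cSCC 19 (adjusted p = 0.07). Fosl2, a subunit of differentiating epidermis, was at 63.2, 48.8, 69.4 and 21.2 CPM in cSCC and 139 to 208 CPM (median 168) in AK (log2 fold change -1.67, SE 0.28, adjusted p = 0.00248), lower in every tumor. Among stress and basal keratins, 3 of 14 were higher and 1 lower, near the 16.05% higher and 8.34% lower of all genes tested. Keratin 13 (Krt13), of mucosal epithelium, was at 11.8, 30.8, 5.69 and 111 CPM in cSCC and 1.14 to 7.57 CPM (median 4.85) in AK (log2 fold change 3.50, SE 0.65, adjusted p = 0.00334), and cSCC 20 lay within the AK range. Krt19, of simple epithelium and follicle stem cells, was at 71.5, 71.2, 77.4 and 27.3 CPM in cSCC and 23.4 to 41.6 CPM (median 30.8) in AK (log2 fold change 1.10, SE 0.26, adjusted p = 0.00933), and cSCC 21 lay within it. The wound keratin Krt6a had a median of 1945 CPM in AK and 684 CPM in NS, and Krt16 of 3695 and 1067 CPM. Both did not pass the test between cSCC and AK (adjusted p = 0.144 and 0.642).

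Of 28 proliferation markers tested, 5 were higher and 1 lower (median log2 fold change 0.31). Of all genes tested, 16.05% were higher and 8.34% lower, so the share of higher markers was near that of all genes. Cdc20, an activator of the anaphase complex, was at 116, 94.5, 66 and 48.6 CPM in cSCC and 19.7 to 41.9 CPM (median 28.2) in AK (log2 fold change 1.59, SE 0.25, adjusted p = 0.00219). The mitotic kinase Aurka was at 36.1, 63.3, 21.6 and 27.3 CPM in cSCC and 5.46 to 21.4 CPM (median 10.5) in AK (log2 fold change 1.80, SE 0.37, adjusted p = 0.00539). Both were higher in every tumor than in every AK and held, but Aurka in cSCC 20 (21.6 against 21.4 CPM) lay only just above the highest AK. NS reached 69.7 CPM of Cdc20 and 29.5 CPM of Aurka, each above cSCC 20 and cSCC 21. The cycling marker Mki67 was at 156, 196, 79.6 and 12.2 CPM in cSCC and 102 to 253 CPM (median 146) in AK (log2 fold change -0.40, adjusted p = 0.573). Of 23 genes of p53 targets, cyclins and inhibitors, 9 were higher and 2 lower, and 3 were higher with no scaling beyond library size. Cyclin D1 (Ccnd1), which drives entry into the cell cycle, was at 102, 608, 141 and 107 CPM in cSCC, 17.7 to 75.9 CPM (median 42.5) in AK and a median of 41.5 CPM in NS (log2 fold change 2.49, SE 0.44, adjusted p = 0.00287). Its partner kinase Cdk4 was at 154, 209, 137 and 145 CPM in cSCC and 49.1 to 114 CPM (median 93.5) in AK (log2 fold change 0.95, SE 0.22, adjusted p = 0.00899). Each was higher in every tumor than in every AK, but Cdk4 lost its call with the correction for GC content (adjusted p = 0.0546). Ccnd3 and Ccng1 were highest in cSCC 21, at 113 and 1533 CPM, and lost their calls without it (adjusted p = 0.351 and 0.223). The retinoblastoma gene Rb1 was at 41, 35.6, 20.5 and 18.9 CPM in cSCC and 46 to 88.3 CPM (median 58.4) in AK (log2 fold change -0.96, SE 0.27, adjusted p = 0.0219), a call lost without cSCC 20 (adjusted p = 0.0505) and with the correction for GC content.

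Of 17 genes of the circadian clock, 1 was higher and 4 lower. Besides Rora, Clock, the activating arm of the oscillator, was at 34, 47, 41 and 31.6 CPM in cSCC and 83.2 to 119 CPM (median 99.5) in AK (log2 fold change -1.27, SE 0.21, adjusted p = 0.00248). Nr1d1, a repressor of that arm, was at 6.95, 14.5, 10.2 and 104 CPM in cSCC and 0 to 4.12 CPM (median 2.78) in AK (log2 fold change 3.93, SE 0.68, adjusted p = 0.00256). All 4 tumors lay on the same side of AK in both, and Nr1d1 was highest in cSCC 21. NS reached 13 CPM of Nr1d1, above cSCC 18 and cSCC 20. The time of day at which tissues were taken is not given in the sources used here. Of 9 Notch genes tested, Jag2 alone was a DEG (log2 fold change 1.47, SE 0.45, adjusted p = 0.028), and it was lost without cSCC 18, 19 or 21.

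Further cell types were followed by their markers. Of 6 hair follicle markers tested, Dlx3, a homeobox factor, was lower (log2 fold change -2.76, SE 0.51, adjusted p = 0.00329) and Cd34, of follicle stem cells and vessels, higher (log2 fold change 1.65, SE 0.47, adjusted p = 0.0206), a call lost without cSCC 19 or cSCC 21. Of 11 adipocyte markers, 1 (Plin4) was higher, at 0, 0.879, 5.69 and 102 CPM, through cSCC 21. The list divided the tumors, with median log2(CPM + 1) differences from the AK mean of -2.59, -3.28, 1.46 and 0.05, and without cSCC 20 and cSCC 21, 9 of the 11 were lower and 0 higher. Of 15 skeletal muscle markers, 1 (Ckm, also made by heart) was higher, at 29.2, 15.8, 23.9 and 1445 CPM, again through cSCC 21. Of 5 melanocyte markers, none was a DEG in edgeR, at an unadjusted p below 0.05, in DESeq2 or in limma voom.

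The 10 genes with the largest shared gain and the 10 with the largest shared loss were taken among non-overlapping, held DEGs outside the blood, lung, heart and skeletal muscle lists. Cxcl3, Hmga2, Eng and Trem1 are described above. Upp1, uridine phosphorylase, which splits uridine, was at 64.6, 528, 262 and 61.5 CPM in cSCC, 2.25 to 18 CPM (median 7.86) in AK and 0.304 to 4.26 CPM (median 2.49) in NS (log2 fold change 4.89, SE 0.58, adjusted p = 0.000895). It lies at chr11:9118103-9136170 (GRCm38). Pthlh, the parathyroid hormone-like hormone behind hypercalcaemia in squamous tumors, was at 41, 1055, 259 and 84.2 CPM in cSCC and 0.674 to 39.6 CPM (median 2.9) in AK (log2 fold change 5.48, SE 1.04, adjusted p = 0.00361), at chr6:147252101-147264183. cSCC 18 lay only just above the highest AK there. Cyp4f18, a cytochrome of neutrophils that inactivates leukotriene B4, was at 10.4, 40.9, 29.6 and 27.5 CPM in cSCC and 0 to 3 CPM (median 1.23) in AK (log2 fold change 4.40, SE 0.61, adjusted p = 0.00143). Acadvl, of mitochondrial fatty acid oxidation, was at 11.1, 40.9, 22.8 and 1143 CPM. The kinase Stk25 was at 6.95, 9.67, 28.4 and 105 CPM. The phosphatase Ptp4a3 was at 18.1, 18.5, 4.55 and 135 CPM. These 3 were highest in cSCC 21, whose heart transcripts' part in them was not tested, while AK reached 10.6, 5.04 and 3.69 CPM. NS reached 19.3, 8.82 and 11.4 CPM, above at least 1 tumor in each.

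**Figure D4:**
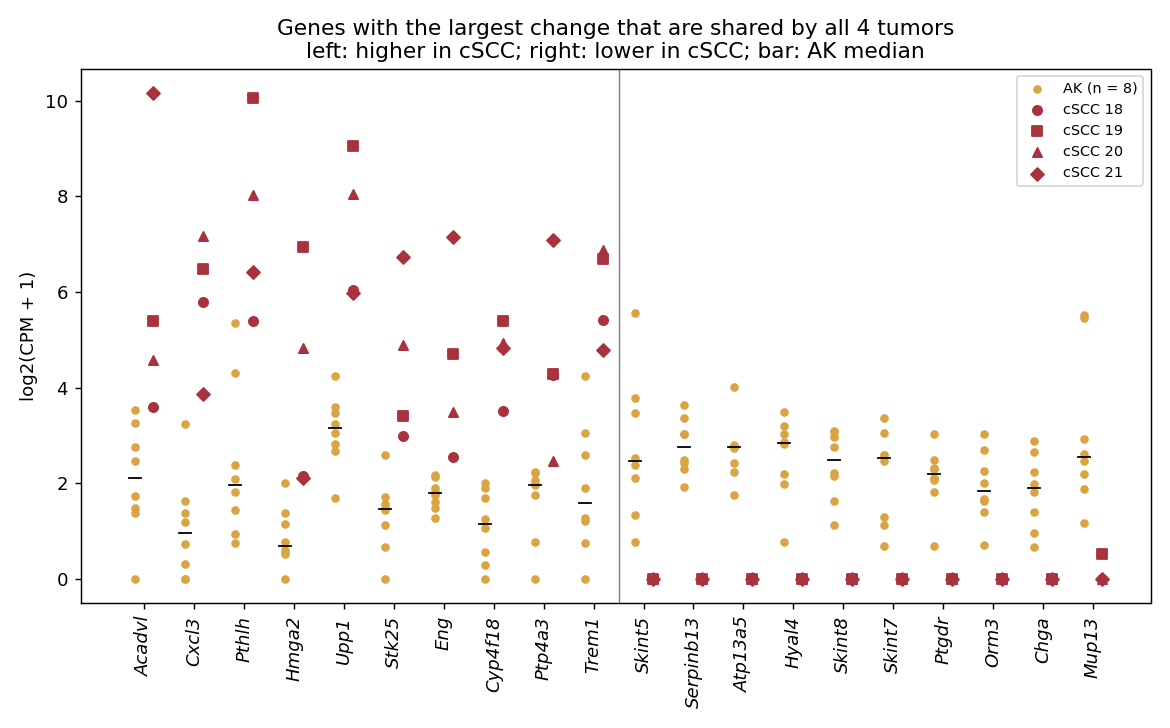
Log2(CPM + 1) in the 8 AK (yellow) and the 4 cSCC (red, 1 symbol per tumor) of the 10 genes with the largest shared gain (left) and the 10 with the largest shared loss (right), with the AK median as a bar. Of the 10 lost genes, 9 are at 0 in all 4 tumors, and Mup13 has 0.439 CPM in cSCC 19.

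The shared losses were of genes at low levels in AK, and limma voom ended the calls of 7 of the 10 (adjusted p = 0.323 for Skint5, 0.158 for Hyal4, 0.181 for Skint7, 0.0774 for Ptgdr, 0.232 for Orm3, 0.167 for Chga and 0.333 for Mup13) and of none of the 10 largest gains. Without cSCC 20 and cSCC 21, the calls of Skint5, Skint7, Orm3, Chga and Mup13 were lost in edgeR's test (adjusted p = 0.0883, 0.0515, 0.0517, 0.0552 and 0.0896). Besides the Skint genes, 6 were at 0 in every cSCC. Serpinb13, a protease inhibitor of differentiating keratinocytes, was at 2.81 to 11.4 CPM (median 5.89) in AK and at least 23-fold lower in cSCC. The hyaluronidase gene Hyal4 was at 0.701 to 10.2 CPM (median 6.19) in AK and at least 23.9-fold lower. Atp13a5, a transporting ATPase, was at 2.4 to 15.1 CPM (median 5.72) in AK and at least 17.9-fold lower. Ptgdr, a prostaglandin D2 receptor, was at least 12.4-fold lower, the orosomucoid gene Orm3 at least 14.3-fold and chromogranin A (Chga), of neuroendocrine cells, at least 12.7-fold. The major urinary protein gene Mup13, of a family with close copies, was at 0, 0.439, 0 and 0 CPM in cSCC and 1.26 to 44.6 CPM (median 4.83) in AK. At 3 counts a single cSCC library could show 0.496 to 3.41 CPM, so these bounds rest on the pooled limit and mostly on cSCC 21. Without it, the bounds of the 9 genes at 0, the Skint genes included, were 5.35-fold to 29.1-fold. Without AK 10, that of Orm3 was 8.41-fold. In all, 23 of the genes tested were at 0 in the 4 tumors. Small proline-rich Sprr2f, a cornified envelope gene induced by stress, did not pass the test, at 670, 96.2, 251 and 195 CPM in cSCC and 68.2 to 276 CPM (median 132) in AK (log2 fold change 1.05, adjusted p = 0.103).

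Seen tumor by tumor, each list was set against the AK mean. The differentiation list lay lower in each tumor, with median log2(CPM + 1) differences of -1.12, -3.66, -2.75 and -4.79 in cSCC 18, 19, 20 and 21. The inflammation list lay higher in each, by 1.67, 2.99, 2.04 and 1.07. The Skint list lay lower in each, with differences of -2.07, -3.89, -3.11 and -4.77. In some other lists the sign differed between tumors. The invasion list differed by -0.25, 1.21, 1.38 and -0.61, the proliferation list by 0.66, 0.78, -0.54 and -0.60 and the interferon list by 0.39, -0.80, -0.84 and -1.53. In this view, cSCC 19, with none of the 3 foreign tissues above the AK range, showed the largest gains in inflammation, hypoxia (1.41) and basement membrane (1.61), and cSCC 18 the smallest loss of differentiation. The fit of cSCC 19 alone against AK gave 971 higher and 1131 lower genes, with that lone tumor assumed to vary like the AK.

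**Figure D5:**
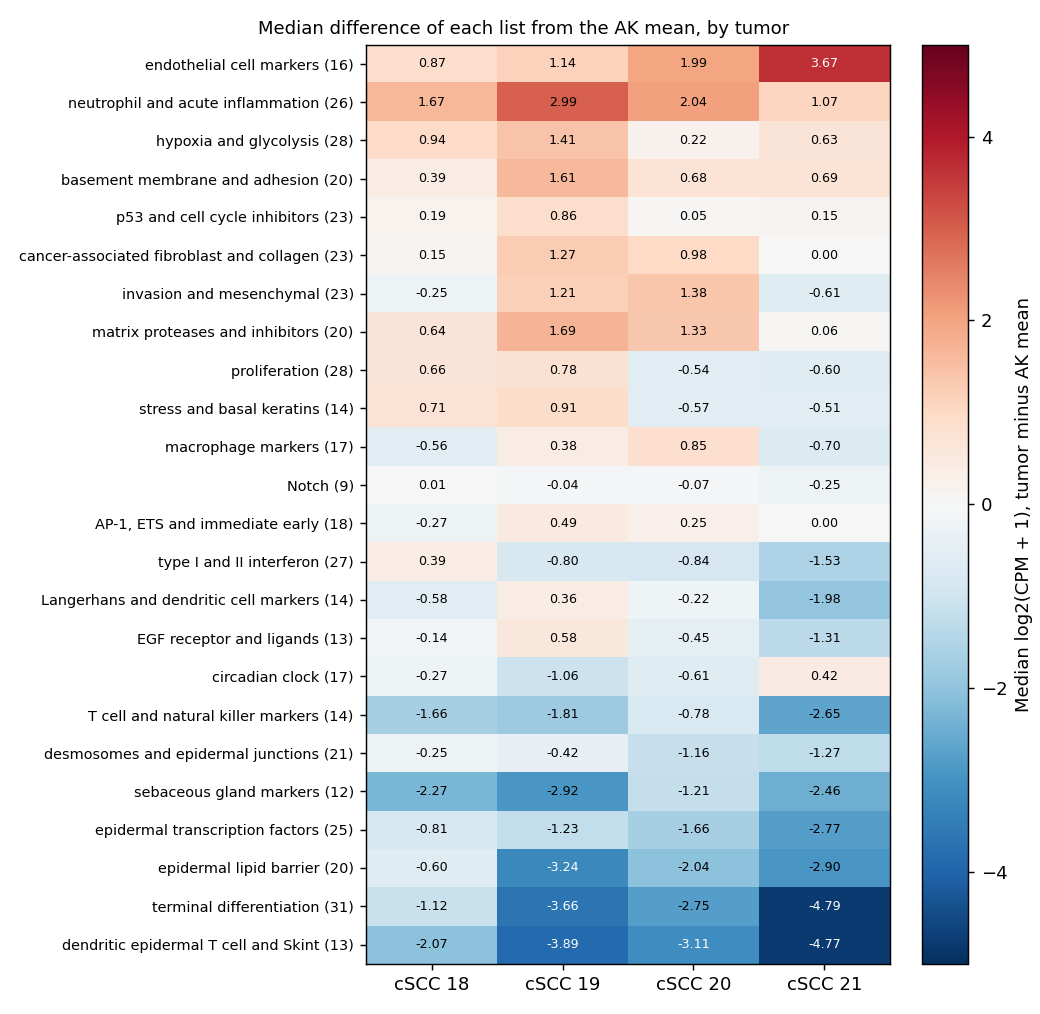
Median difference of each list (number of tested genes in parentheses) from the AK mean, in log2(CPM + 1), for each of the 4 tumors. The Skint, differentiation, lipid barrier and transcription factor lists are below 0 in all 4, and the inflammation, hypoxia and endothelial lists are above 0 in all 4.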

How the data were processed

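RNA was extracted with TRIZOL, made into Nextera libraries and sequenced as paired reads, on a HiSeq per the labels and a NextSeq per the study's methods. Per the submitters' processing notes, the authors trimmed reads with Trimmomatic 0.36, aligned them with HISAT2 2.0.5 and counted them with featureCounts 1.5.2. The notes name mm9, while the study's methods name GRCm38 with StringTie. The build of the table is therefore uncertain, as is strand use, so antisense and overlapping genes cannot be told apart. The deposited table holds whole read counts per gene symbol, not normalized, for 22090 genes.

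Samples were grouped by their labels. Over 34 pairs of samples within AK or cSCC, counts differed by more than sampling noise (chi-square over its degrees of freedom at least 11.3). The 4 cSCC and 8 AK were fitted with edgeR 4.0.16 in R 4.3.3 (filterByExpr, TMM, glmQLFit, glmQLFTest). P-values were adjusted by the Benjamini-Hochberg method over 12032 genes, with the study's fold change limits of 1.5 and 0.67. Nothing tells whether samples varied by animal or by technique. Depth limits precision: 3 counts were worth 0.496 to 3.41 CPM in a cSCC library and 0.225 to 3.78 CPM in an AK library, and such limits cover counting error only. The study's own test was a two-sample rule on transformed values, which was run as an alternative, with others named below (DESeq2 1.42.0, limma 3.58.1).

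Named genes were the 10 largest changes in each direction among non-overlapping, held DEGs, up to 4 DEGs per direction of each list (non-overlapping ones first), and Rora, Pou2f3, S100a9, Sprr2f and Upp1. The blood, lung and heart genes with the highest level were added. A further gene that the rule names is not reported here. Members, lists and this rule were chosen with earlier results of these data known. Gene positions are from GENCODE M21 (GRCm38), matched by symbol.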

Additional observations from a re-analysis of the deposited data

Results flagged for a closer look

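For the 130 named genes, the highest and lowest sample of the 4 cSCC and of the 8 AK were set against their group by Dixon's test. Of 260 groups, 25 (9.62%) held a sample far from the others, where chance gives about 1 in 20.

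Among cSCC, genes of other tissues stood out in both cSCC 20 and cSCC 21: cSCC 20 held 22389 CPM of Sftpc and 6670 CPM of Scgb1a1, both lung genes, and cSCC 21 held 2591 CPM of Tnnc1 and 1445 CPM of Ckm, both muscle genes. In cSCC 19, Lamb3 (594 CPM), Fst (268 CPM) and Itga3 (127 CPM) lay far above the other tumors, and Mup13 (0.439 CPM) was seen in that tumor alone. In cSCC 21, Krt19 (27.3 CPM) and Postn (124 CPM) lay below the other tumors and Irf7 (25.1 CPM) above them. In cSCC 20, the mitotic kinase Plk1 (4.55 CPM) lay below the others. In cSCC 18, Cd34 (28.5 CPM) lay below the others and Skint2 (1.39 CPM) was seen alone.

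Among AK, AK 14 held more haemoglobin transcripts than the other AK, with Hba-a1 at 49762, Hba-a2 at 42410 and Hbb-bt at 16212 CPM. In AK 12, the AK with the fewest counts (867219), Atp13a5 was high (15.1 CPM), and Bcl11b (95.9 CPM), Erbb2 (13.9 CPM), Per2 (1.26 CPM), Plod2 (0 CPM) and Egfl7 (0 CPM) were low. In AK 16, Pou2f3 (11.4 CPM) and Cdk4 (49.1 CPM) were low.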

How the results depend on the processing

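Of 1931 higher DEGs in the main analysis, the count became 1112 with at least 10 counts in every sample, 1021 with no scaling beyond library size, 726 with limma voom, 843 leaving out cSCC 20 and 21, and 971 with cSCC 19 as the lone tumor. Leaving out 1 sample at a time gave 837 (without cSCC 21) to 2330 (without cSCC 18). Of 1004 lower DEGs, the count became 619 with at least 10 counts, 1634 with all 20 samples in the fit, 544 with limma voom, 1970 with the study's two-sample rule and 1616 at an unadjusted p. Leaving out 1 sample gave 768 to 1664, the highest without cSCC 18. Non-overlapping higher DEGs numbered 177 with at least 10 counts, 70 with no scaling, 654 leaving out cSCC 20 and 21, 971 with cSCC 19 alone, and 389 to 907 leaving out 1 sample (907 without cSCC 18, 646 without cSCC 20). Non-overlapping lower DEGs numbered 451 with at least 10 counts, 387 with limma voom, 1126 with cSCC 19 alone, and 625 to 1358 leaving out 1 sample (1358 without cSCC 18). Fewer tumors make non-overlap easier by construction, and a count minimum in every sample removes genes at 0 in tumors. The cause of the other moves was not tested. Higher genes were 46.3% of DEGs under the two-sample rule and 46.8% without cSCC 21.

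With the haemoglobin genes left out of the library size, an alternative chosen after seeing the data, DEGs numbered 1549 higher and 1033 lower, and with the GC correction, likewise chosen later, 1460 and 789. The latter ended the calls of 17 named genes, among them Krt75, Krt19, Jag2, Hbegf, Egfr, Irf7, Pcna, Cdk4, Rb1, Trp53inp1 and Postn. No scaling ended those of 15, among them Plod2, Inhba, Krt75, Krt19, Hbegf, Irf7, Rrm2 and Cdk4. Of 129 named DEGs, 55 kept their call under every alternative that gave a value. DESeq2 gave no adjusted p for 15 named genes. No named gene turned its direction under another scaling. With cSCC 19 alone, the log2 fold change was -0.79 for Hspg2, -1.65 for Hba-a1, -1.67 for Hba-a2, -1.40 for Hbb-bt, -6.17 for Scgb1a1, -1.10 for Sftpc, -1.30 for Myl3, -2.52 for Plin4 and -0.68 for Sprr2f. Leaving out cSCC 20 and 21 gave -6.06 for Scgb1a1, -0.52 for Sftpc and -3.19 for Plin4. Leaving out 1 sample gave -3.11 (without cSCC 20) to 10.39 for Scgb1a1, -0.67 (without cSCC 20) to 10.45 for Sftpc and -1.47 (without cSCC 21) to 3.04 for Plin4. For Plin4, limma voom gave -0.89 and the two-sample rule -0.44. No paired analysis was possible because the labels share no replicate number between AK and cSCC. Depth limits the genes at 0 in cSCC to the bounds given.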

Other observations

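Sox2, a stem cell factor of squamous tumors chosen here after its values were seen, did not pass the filter on low counts. It was at 1.39, 9.23, 19.3 and 1.16 CPM in cSCC 18, 19, 20 and 21 and at 0 to 0.217 CPM in AK, a description with no test. Every tumor lay above every AK in value, but depth limits this for cSCC 18 and cSCC 21. The level in cSCC 18 lay under the 2.08 CPM that 3 counts are worth there. In AK 12 and AK 16, 3 counts are worth 3.78 and 1.8 CPM, so levels like those of cSCC 18 and cSCC 21 could go unseen.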
